A study of Homo sapiens with 9 samples.

Results

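The RNA interference machinery was followed here as 10 genes, chosen by symbol from the deposited table of gene counts: the 4 argonautes AGO1, AGO2, AGO3 and AGO4, the nucleases DROSHA and DICER1 with their RNA-binding partners DGCR8 and TARBP2, the export receptor XPO5, and the silencing scaffold TNRC6A. Each of the 10 symbols matched a single Ensembl identifier among the 61806 in the table. The study asked what changes in the transcriptome when EXOSC10-AS1, an RNA antisense to the exosome subunit gene EXOSC10, is targeted by RNA interference. The cells were HCT116, an established line from a colorectal carcinoma. They were transfected with an EXOSC10-AS1 siRNA (siRNA 1 or siRNA 2, the 2 sequences the labels number) or with a control siRNA, with 3 RNA-seq libraries in each of the 3 groups. The labels give Lipofectamine RNAiMax as the transfection reagent for all groups, name every library as batch Day 3, and do not say what that day counts from. Nothing in them tells separate transfections from repeat libraries of 1 culture, so p-values measure the spread between these libraries, which may be technical. All groups, the control included, had received a small RNA duplex and transfection reagent, and no untransfected cells were analysed here.

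MicroRNAs are made in steps. In the nucleus, the RNase III enzyme DROSHA and its partner DGCR8 cut a hairpin out of a long primary transcript, and exportin-5, the product of XPO5, carries the hairpin to the cytoplasm with RAN-GTP. DICER1, helped by TARBP2, trims the hairpin to a short duplex, chaperones help an argonaute take up a strand of it, and the argonaute recruits TNRC6 proteins and through them the CCR4-NOT and PAN2-PAN3 deadenylases to the target messenger RNA. AGO2 is the human argonaute best known for cutting a fully matched target, and an siRNA such as those used here enters the pathway at the argonaute step.

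Gene counts summed to between 56757567 and 66496723 per library. The 10 genes were all kept by the filter on low counts, among 20868 genes tested. EXOSC10-AS1 itself was close to the detection limit, with 4, 0 and 0 counts after siRNA 1, 5, 13 and 0 after siRNA 2, and 26, 4 and 14 after control siRNA. Its differences from control were not called after siRNA 1 (log2 fold change -3.40 ± 1.45 SE, adjusted p = 0.19) or after siRNA 2 (-1.29 ± 1.24, adjusted p = 0.55), so the deposited counts give no firm measure of the knockdown. Its exons overlap those of EXOSC10 on the opposite strand, and no source at hand says whether counting used strand. EXOSC10 was called neither after siRNA 1 (0.06 ± 0.07, adjusted p = 0.68) nor after siRNA 2 (0.13 ± 0.07, adjusted p = 0.27). The line was checked against its markers: 10 epithelial markers summed to 4331.7 to 5114.9 counts per 1000000 counts (CPM) after siRNA 1, 3774.6 to 4482.1 CPM after siRNA 2 and 5173.9 to 5278.3 CPM after control siRNA, with CDX1 at 0 in every library. With siRNA 2, 5 of the 8 epithelial markers tested fell (ELF3, CLDN4, KRT8, KRT18 and KRT19). That is 62.5%, where 13.8% of all tested genes were called in either direction, or 22.6% of those at least as high in CPM as AGO4. After siRNA 1, 1 of the 8 was called, CDH1, which rose (12.5%, against 7.08% of all tested genes and 11.8% of those at least as high in CPM as AGO4). Leukocyte markers summed to at most 2.57 CPM, with PTPRC, CD3E and MS4A1 at 0. The 8 fibroblast markers, of which COL1A1 was the highest, summed to 46.9 to 52.4 CPM after siRNA 1, 36.1 to 40.3 CPM after siRNA 2 and 59.5 to 61.4 CPM after control siRNA, and COL1A1 was called lower after siRNA 2. The 8 neural and liver markers summed to 4.81 to 5.61, 3.48 to 4.85 and 3.60 to 4.79 CPM in the same groups, with TTR at 0. The part of these differences in the results below was not tested.

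Some libraries stood apart from the rest of their group. Across 20200 genes, the log2 difference between replicate 1 of siRNA 1 and the control mean correlated with the GC content of the transcripts at r = 0.338, against -0.039 in each of the other 2 libraries of siRNA 1. The same correlation was -0.084 in replicate 1 of siRNA 2 and -0.281 and -0.294 in replicates 2 and 3, and it lay between -0.011 and 0.02 in the control libraries. These are correlations across genes within a library, and genes are not independent replicates. Calls and values that these libraries or the GC trend moved most are given beside the results. In bulk RNA, fewer cells making a transcript and less of it per cell cannot be told apart.

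All 10 genes were expressed. After control siRNA, AGO2 had the highest level, 13.7 ± 0.153 CPM per kilobase of annotated exon (mean ± SD, n = 3 here and below). XPO5 followed at 11.2 ± 0.432, DGCR8 at 9.14 ± 0.360 and DROSHA at 8.93 ± 0.118 CPM per kilobase, and these 2 microprocessor subunits did not differ beyond their spread. TARBP2 (6.97 ± 0.150), TNRC6A (6.93 ± 0.150), DICER1 (6.32 ± 0.322) and AGO1 (6.19 ± 0.0266) formed a middle group, in which neighbours overlapped except TNRC6A and DICER1. AGO4 (2.73 ± 0.293) and AGO3 (2.26 ± 0.125 CPM per kilobase) were lowest. This order depends on the length used, because several of the genes have long alternative exons. Divided by the longest annotated transcript instead, the control means were 17.8 for XPO5, 15.3 for TARBP2, 14.9 for AGO2 and 14.2 CPM per kilobase for DGCR8, and AGO3 was again lowest at 2.42.

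**Figure D1:**
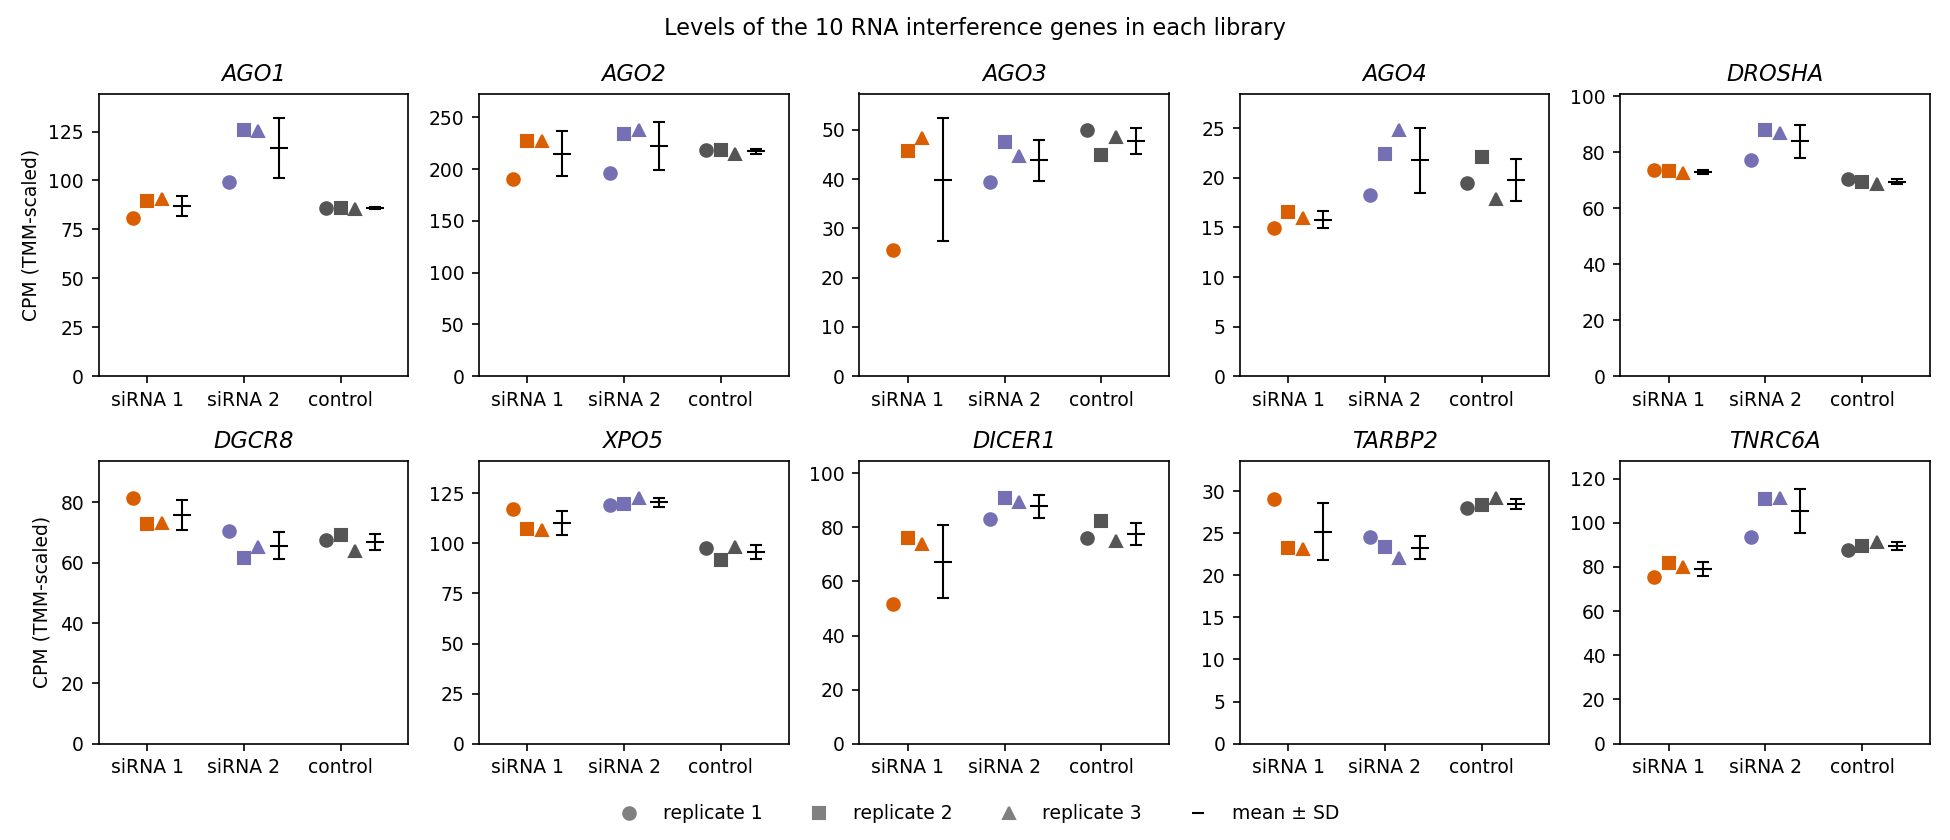
Level of each of the 10 genes in TMM-scaled CPM (vertical axes, 1 panel a gene, each from 0) in every library of siRNA 1, siRNA 2 and control siRNA. Symbols are replicates 1 to 3, and the bars beside them are the mean ± SD. The 3 control libraries lie close together for AGO1 (85.5 to 86.1 CPM), while replicate 1 of siRNA 1 is low for AGO3 (25.6 CPM) and DICER1 (51.8 CPM).

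After siRNA 2, 3 of the 10 genes rose and none fell. These were AGO1, DROSHA and XPO5, and the rise was at most 35.9% (AGO1). Over all tested genes 13.8% were called in this comparison, 6.15% as higher, and the shares were 22.6% and 10.3% among the 8546 genes with at least the average CPM of AGO4, which was the lowest of the 10 in CPM not divided by length. The median log2 fold change of the 10 was 0.16, against -0.01 over all genes. After siRNA 1, edgeR's quasi-likelihood test with Benjamini-Hochberg adjustment called 0 of the 10, while 7.08% of all tested genes were called, and 11.8% of those at least as high as AGO4. Before adjustment 4 of the 10 had p under 0.05 (XPO5, AGO4, DGCR8 and TNRC6A), DESeq2 called 1 (XPO5) and limma-voom called 0. The median of the 10 after siRNA 1 was -0.10, against -0.02 over all genes. The 2 comparisons share the 3 control libraries.

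**Figure D2:**
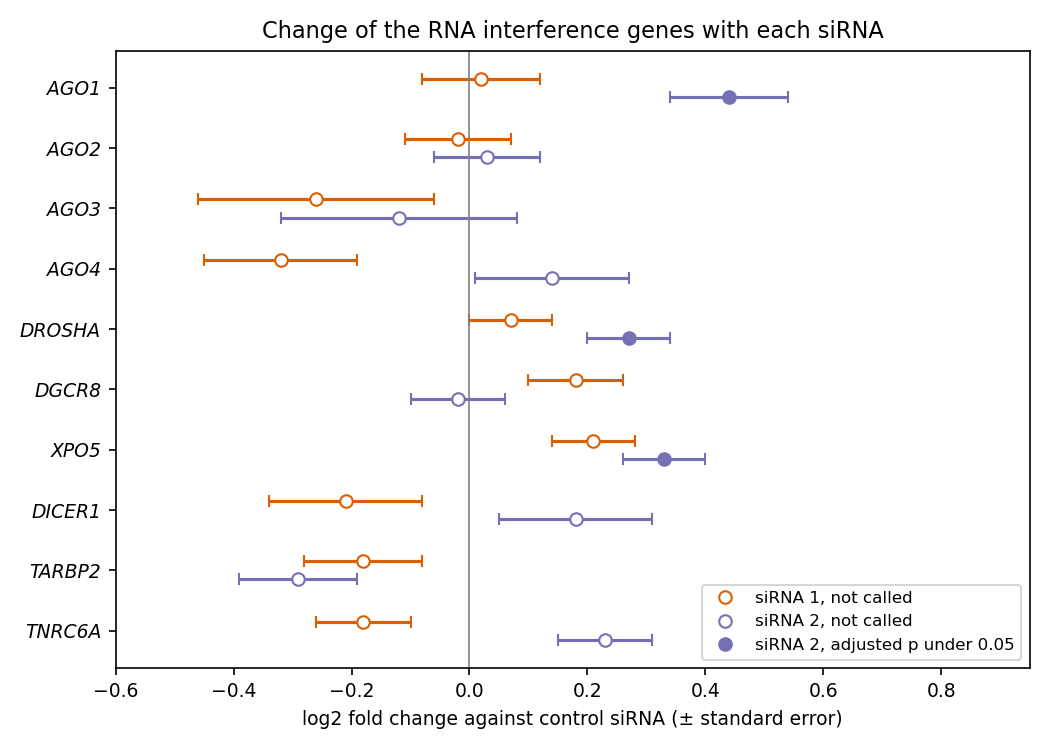
Log2 fold change of each of the 10 genes against control siRNA after siRNA 1 and after siRNA 2. Points are edgeR estimates, bars are ± 1 SE, and filled points passed an adjusted p of 0.05. AGO1 (0.44), DROSHA (0.27) and XPO5 (0.33) are the filled points, all of siRNA 2.

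The argonautes bind the guide strand. AGO1, which represses targets without efficient cutting, had 99.1, 125.6 and 125.4 CPM after siRNA 2, against 86.1, 86.1 and 85.5 CPM after control siRNA. All 3 libraries of siRNA 2 were above all 3 control libraries, and replicate 1 was nearest to them. The log2 fold change was 0.44 ± 0.10 (SE, adjusted p = 0.015), a rise of 35.9%. After siRNA 1, AGO1 had 81.0, 89.3 and 90.3 CPM, on both sides of the control libraries, with a log2 fold change of 0.02 ± 0.10 (adjusted p = 0.95). The siRNA 2 call for AGO1 was lost when any control library, or replicate 2 or 3 of siRNA 2, was left out (adjusted p up to 0.072), while its log2 fold change stayed between 0.39 and 0.55. Without replicate 1 of both siRNAs, a setting chosen after the data were seen, it was 0.55 (adjusted p = 2.5e-07).

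AGO2, the argonaute with slicer activity and the most abundant of the 4, had 190.1, 227.4 and 227.2 CPM after siRNA 1, 196.0, 233.8 and 237.4 CPM after siRNA 2, and 218.3, 218.9 and 214.4 CPM after control siRNA. In both siRNA groups replicate 1 was below the control libraries and replicates 2 and 3 were just above them. The log2 fold changes were -0.02 ± 0.09 for siRNA 1 (adjusted p = 0.95) and 0.03 ± 0.09 for siRNA 2 (adjusted p = 0.85). The signs of such small differences turned with the scaling. AGO3 had 25.6, 45.7 and 48.4 CPM after siRNA 1, 39.4, 47.6 and 44.6 CPM after siRNA 2, and 49.9, 44.8 and 48.5 CPM after control siRNA. Replicate 1 of siRNA 1 alone held the siRNA 1 mean down, its log2 difference from the other 2 being -0.88. AGO3 was not called in either comparison (adjusted p = 0.48 after siRNA 1 and 0.74 after siRNA 2).

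AGO4 had 14.9, 16.6 and 16.0 CPM after siRNA 1, 18.3, 22.4 and 24.8 CPM after siRNA 2, and 19.5, 22.1 and 17.9 CPM after control siRNA. The siRNA 1 libraries were all below the control libraries, but the difference did not pass adjustment (-0.32 ± 0.13, adjusted p = 0.16), and the siRNA 2 libraries overlapped them (0.14 ± 0.13, adjusted p = 0.52). AGO4, AGO1 and AGO3 are neighbours in that order on chromosome 1 in the RefSeq annotation, between CLSPN and TEKT2. AGO2 lies on another chromosome. Of the 3 neighbours, AGO1 alone was called after siRNA 2. The argonautes are close paralogs, and the counting of reads that fit several of them is not described in the sources at hand.

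The make-up of the argonaute pool followed from these levels. Per length, AGO2 made up 56.8 ± 0.174% of the summed argonaute level after siRNA 1, 51.1 ± 0.626% after siRNA 2 and 55.1 ± 0.244% after control siRNA. AGO1 made up 26.3 ± 1.21% after siRNA 1, 30.5 ± 0.591% after siRNA 2 and 24.9 ± 0.286% after control siRNA. The AGO2 share was lower, and the AGO1 share higher, in every siRNA 2 library than in any control library. In every siRNA 1 library both shares were higher than in any control library. There AGO1 held 27.7, 25.5 and 25.7%, against 24.8, 24.6 and 25.2% in the controls. AGO4 held 9.15 ± 0.510%, 10.9 ± 0.574% and 11.0 ± 1.03% after siRNA 1, siRNA 2 and control siRNA. AGO3 held 7.77 ± 1.78%, 7.54 ± 0.361% and 9.07 ± 0.573% in the same order. The shares sum to a fixed total, so they are not separate results, and with 3 libraries a group they are given as a description. The 4 genes together had 311.5, 379.0 and 381.9 CPM after siRNA 1, 352.9, 429.3 and 432.2 CPM after siRNA 2, and 373.8, 371.8 and 366.3 CPM after control siRNA, with replicate 1 the lowest in both siRNA groups.

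**Figure D3:**
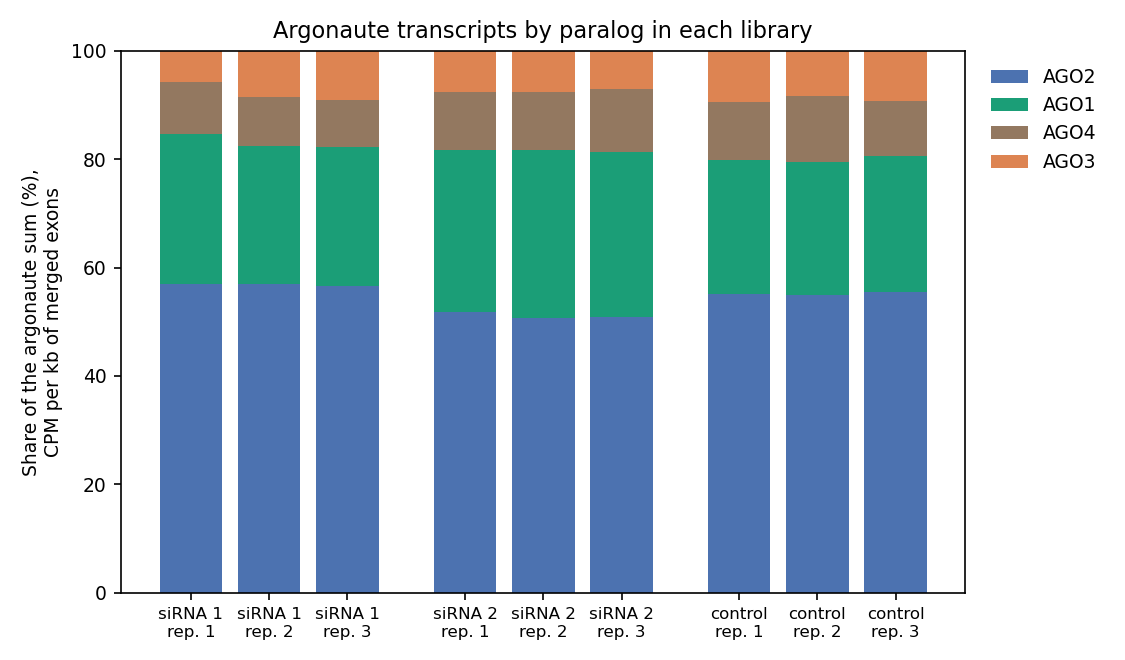
Share of AGO1, AGO2, AGO3 and AGO4 in the summed argonaute level per library, in percent (vertical axis), from CPM per kilobase of annotated exon, for siRNA 1, siRNA 2 and control siRNA. Each stacked bar is a library. The AGO1 share is 25.5 to 27.7% in the siRNA 1 libraries, 29.9 to 31.0% in the siRNA 2 libraries and 24.6 to 25.2% in the control libraries.

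DROSHA, the nuclear RNase III that makes the first cut, had 77.1, 87.8 and 86.8 CPM after siRNA 2, against 70.4, 69.5 and 68.5 CPM after control siRNA, with no overlap between the groups. It rose by 0.27 ± 0.07 on the log2 scale (adjusted p = 0.029). After siRNA 1, DROSHA had 73.6, 73.2 and 72.4 CPM, also above every control library, with a difference of 0.07 ± 0.07 that was not called (adjusted p = 0.59). The siRNA 2 call was lost without any control library or without replicate 2 or 3 of siRNA 2 (adjusted p up to 0.13), while the log2 fold change stayed between 0.24 and 0.33. DGCR8, the double-stranded RNA-binding subunit that positions the cut, had 81.5, 72.7 and 73.1 CPM after siRNA 1, 70.6, 61.4 and 65.2 CPM after siRNA 2, and 67.4, 69.2 and 64.0 CPM after control siRNA. The siRNA 1 libraries were all above the control libraries but did not pass adjustment (0.18 ± 0.08, adjusted p = 0.20), and the siRNA 2 libraries lay on both sides of them (-0.02 ± 0.08, adjusted p = 0.88).

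DGCR8 is itself a substrate of the complex: its messenger RNA holds hairpins that DROSHA and DGCR8 cut. The microRNA genes annotated in its exons are MIR3618 and MIR1306, and their mature sequences from RefSeq (GRCh38.p14, chromosome 22, plus strand) are shown with the seed, bases 2 to 8, in capitals because they are the cut products of the transcript whose level is given above. The 3 seeds differ.
hsa-miR-3618: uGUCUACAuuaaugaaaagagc
hsa-miR-1306-5p: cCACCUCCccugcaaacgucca
hsa-miR-1306-3p: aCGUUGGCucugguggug
The table's rows for MIR3618 and MIR1306 held 9 counts each over all 9 libraries. These libraries do not measure mature microRNAs, and reads of DGCR8 that fall in the hairpins could be counted for either gene.

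XPO5, the export receptor of precursor hairpins, gave the most even difference. It had 117.3, 107.2 and 106.7 CPM after siRNA 1, 118.9, 119.5 and 122.7 CPM after siRNA 2, and 97.5, 91.5 and 98.1 CPM after control siRNA. All 6 libraries of the 2 siRNAs were above all 3 control libraries. The rise passed the test after siRNA 2 (0.33 ± 0.07, adjusted p = 0.011) and, by edgeR, not after siRNA 1 (0.21 ± 0.07, adjusted p = 0.092), where DESeq2 gave an adjusted p of 0.030. The difference between the siRNAs for XPO5 was 0.12 ± 0.07 (adjusted p = 0.21). With both siRNAs set together against control, XPO5 was the only one of the 10 called, at 0.27 ± 0.06 (adjusted p = 0.022), where 7.37% of all tested genes were called, 3.45% as higher, and 12.6% of those at least as high as AGO4. That call was lost without any control library (adjusted p = 0.10 to 0.16) and without replicate 2 or 3 of siRNA 2 (0.054 and 0.060). The siRNA 2 call was lost without control replicate 1 (0.052), control replicate 2 (0.069) or siRNA 2 replicate 3 (0.055). On the opposite strand, exons of POLR1C overlap those of XPO5, and no source at hand says whether counting used strand. Exons of AGO1, AGO3, DGCR8, DICER1 and TARBP2 also overlap other annotated genes on the opposite strand, and those of AGO2 overlap another gene on the same strand.

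DICER1, which makes the second cut, had 51.8, 76.2 and 73.8 CPM after siRNA 1, 83.0, 90.9 and 89.5 CPM after siRNA 2, and 75.9, 82.2 and 74.9 CPM after control siRNA. The siRNA 2 libraries were all above the control libraries, and replicate 1 of siRNA 1 was far below them, yet neither difference was called (-0.21 ± 0.13, adjusted p = 0.38, after siRNA 1, and 0.18 ± 0.13, adjusted p = 0.41, after siRNA 2). Both were near 0 with the GC trend removed, at -0.05 and 0.05. The siRNA 2 difference of DICER1 passed without replicate 1 of siRNA 1 (0.18, adjusted p = 0.041). That library is outside this comparison and its loss left the estimate as it was, while the shared spread changed. In that fit 5289 of all genes were called after siRNA 2, against 2872 with all libraries. TARBP2, the partner that helps DICER1 hold its substrate, had 29.1, 23.3 and 23.1 CPM after siRNA 1, 24.6, 23.4 and 22.0 CPM after siRNA 2, and 28.0, 28.3 and 29.2 CPM after control siRNA. The siRNA 2 libraries and 2 of the 3 siRNA 1 libraries were below every control library. It was not called after siRNA 1 (-0.18 ± 0.10, adjusted p = 0.33) or siRNA 2 (-0.29 ± 0.10, adjusted p = 0.097). Without replicate 1 of siRNA 1, the siRNA 1 difference for TARBP2 was -0.29 and passed (adjusted p = 0.035). The siRNA 2 difference passed in that fit too (-0.29, adjusted p = 0.014), again with the libraries compared unchanged. With the GC trend removed the siRNA 2 difference was -0.02 (adjusted p = 0.87). PRKRA, the paralog of TARBP2 that also binds DICER1, was not called either (-0.08 ± 0.12, adjusted p = 0.76, and -0.09 ± 0.12, adjusted p = 0.68), though with the GC trend removed the siRNA 2 difference was -0.22 (adjusted p = 0.034).

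TNRC6A, a GW repeat protein, links the argonautes to the deadenylases. It had 75.6, 81.6 and 79.8 CPM after siRNA 1, 93.8, 110.8 and 111.3 CPM after siRNA 2, and 87.6, 89.6 and 91.5 CPM after control siRNA. The control libraries lay between the siRNA 1 libraries, all lower, and the siRNA 2 libraries, all higher. Against control neither difference was called (-0.18 ± 0.08, adjusted p = 0.21, and 0.23 ± 0.08, adjusted p = 0.082), although DESeq2 called that of siRNA 2 (adjusted p = 0.033). The siRNA 2 difference of TNRC6A also passed without replicate 1 of siRNA 1 (0.24, adjusted p = 0.031) or of siRNA 2 (0.32, adjusted p = 0.0080). The former library is outside that comparison.

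Of the paralogs of TNRC6A, TNRC6B had estimates in the same directions, while TNRC6C fell after siRNA 2. TNRC6C had 38.9, 37.7 and 39.1 CPM after siRNA 1, 24.4, 26.2 and 25.1 CPM after siRNA 2, and 37.4, 39.7 and 36.1 CPM after control siRNA. It fell by 0.58 on the log2 scale after siRNA 2 (SE 0.07, adjusted p = 0.0012), remained called in all 19 alternatives tried, and differed by 0.03 after siRNA 1 (adjusted p = 0.85). TNRC6B had 64.2, 76.3 and 81.5 CPM after siRNA 1, 85.4, 119.2 and 113.1 CPM after siRNA 2, and 90.7, 93.2 and 93.8 CPM after control siRNA, and was called against control with neither (-0.32 ± 0.13, adjusted p = 0.15, and 0.19 ± 0.13, adjusted p = 0.36). Per length after control siRNA, TNRC6A stood above TNRC6B at 4.63 ± 0.0830 and TNRC6C at 3.40 ± 0.161 CPM per kilobase. The PIWI argonautes, known from the germline, were barely present: PIWIL1 had 0 counts in every library, PIWIL3 had 8 counts in a single siRNA 1 library, and PIWIL2 and PIWIL4 stayed under 1 CPM and were not called.

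Set directly against siRNA 1, siRNA 2 gave higher AGO1 (0.43 ± 0.10, adjusted p = 0.012), AGO4 (0.47 ± 0.13, adjusted p = 0.028) and TNRC6A (0.41 ± 0.08, adjusted p = 0.0065). That is 3 of the 10, all higher, where 22.4% of all tested genes were called and 10.1% as higher, or 35.6% and 15.9% among those at least as high as AGO4. For each of these 3 genes all siRNA 2 libraries were above all siRNA 1 libraries, which describes the call and is no separate support for it. TNRC6A remained called in all 19 alternatives, with an adjusted p of at most 0.035. AGO1 was lost without siRNA 2 replicate 2 or 3 (adjusted p = 0.059 and 0.058), and AGO4 without siRNA 1 replicate 1 or 3 (0.057 and 0.059) or siRNA 2 replicate 2 or 3 (0.092 and 0.12). DICER1 was 0.38 ± 0.13 higher (adjusted p = 0.058) and 0.10 higher with the GC trend removed. Without replicate 1 of siRNA 1, DROSHA (0.21, adjusted p = 0.047), DICER1 (0.23, 0.029) and XPO5 (0.17, 0.039) passed as well, and without replicate 1 of siRNA 2 so did DROSHA (0.26, 0.012) and DGCR8 (-0.26, 0.043). TNRC6B was 0.52 ± 0.13 higher (adjusted p = 0.018) and TNRC6C was 0.61 lower after siRNA 2 than after siRNA 1 (log2 fold change -0.61 ± 0.07, adjusted p = 0.00059).

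The transcripts of the 10 genes span 38.9% GC (AGO3) and 39.2% (DICER1) to 53.6% (DGCR8) and 60.8% (TARBP2). In replicate 1 of siRNA 1, the log2 difference from the mean of the other 2 libraries was -0.88 for AGO3, -0.53 for DICER1, 0.16 for DGCR8 and 0.33 for TARBP2, and over the 10 genes it correlated with GC content at r = 0.87 (Spearman's rho 0.79, n = 10 genes of the same libraries, a description). In replicate 1 of siRNA 2, 8 of the 10 were lower than in the other 2 libraries, with differences of -0.36 (AGO4) to 0.16 (DGCR8), and the correlation with GC content was weaker (r = 0.69, rho 0.49). AGO3 (-0.23) and DICER1 (-0.12), the genes of lowest GC content, differed less there than AGO4 and AGO1 (-0.34). With the GC trend removed, the 3 calls of siRNA 2 against control were kept, at 0.40 for AGO1 (adjusted p = 0.0035), 0.22 for DROSHA (0.022) and 0.33 for XPO5 (0.0018). XPO5 then passed after siRNA 1 as well (0.19, adjusted p = 0.030). Without replicate 1 of both siRNAs, 4 of the 10 were called after siRNA 1, namely DGCR8 (0.13), XPO5 (0.16), TARBP2 (-0.29) and TNRC6A (-0.15). In that setting 7 were called after siRNA 2, where AGO2 (0.12), DICER1 (0.22), TARBP2 (-0.32) and TNRC6A (0.32) joined AGO1, DROSHA and XPO5. Calls rose over all genes too, to 5381 after siRNA 1 and 8224 after siRNA 2, from 1478 and 2872 with all libraries. The added calls are therefore not particular to the 10 genes. Whether the trend has to do with the siRNAs or with the libraries was not tested.

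**Figure D4:**
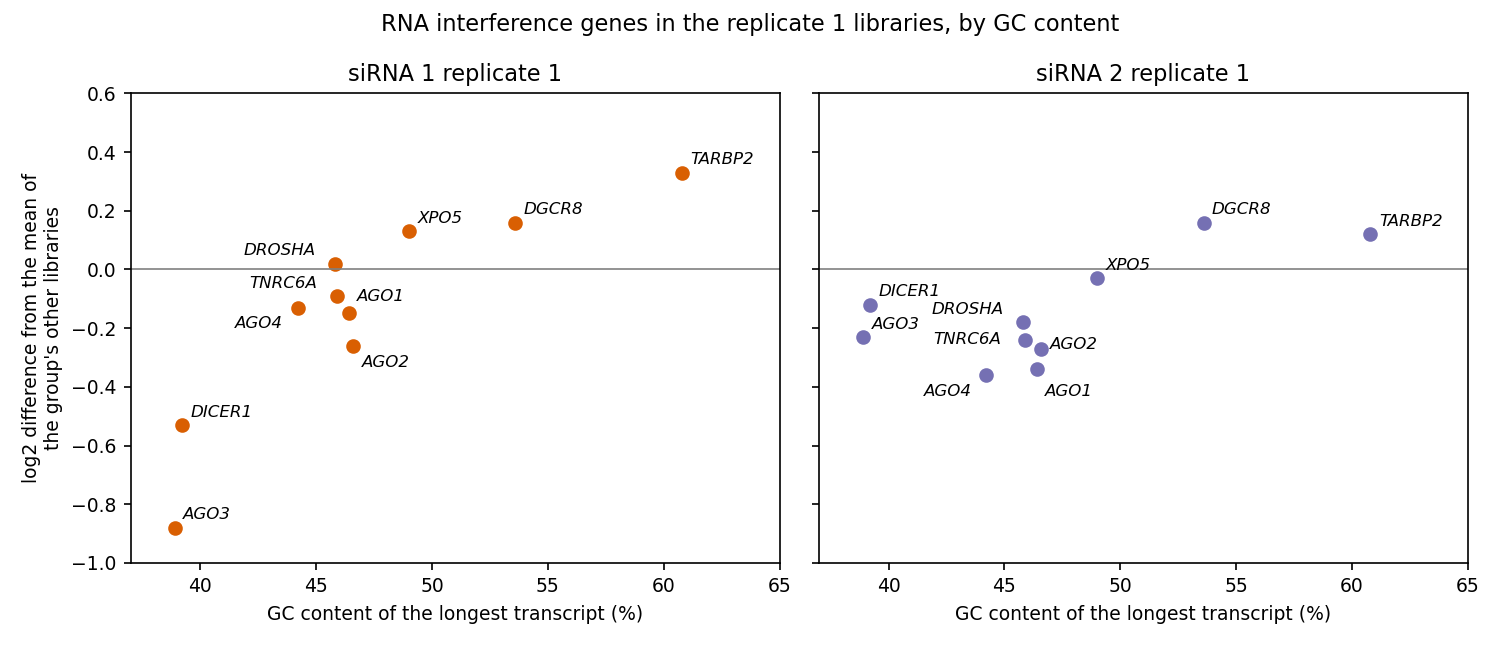
Log2 difference of replicate 1 from the mean of replicates 2 and 3 for each of the 10 genes, against the GC content of its longest annotated transcript in percent, for siRNA 1 and siRNA 2. In siRNA 1 the points run from AGO3 (38.9% GC, -0.88) to TARBP2 (60.8% GC, 0.33).

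**Figure D5:**
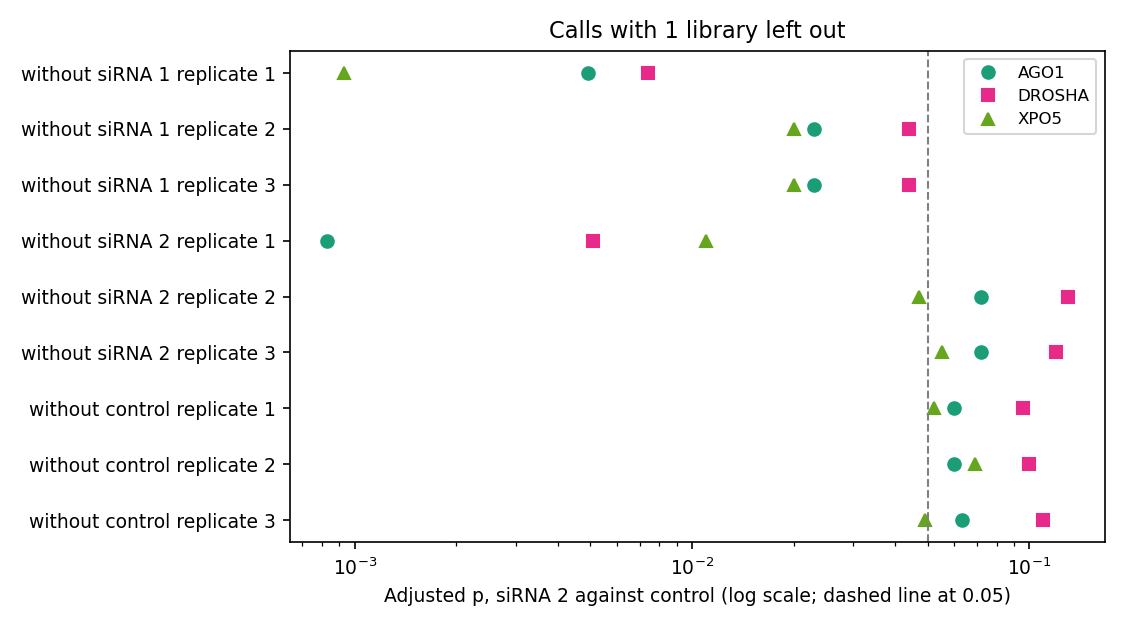
Adjusted p of AGO1, DROSHA and XPO5 in siRNA 2 against control (log axis, dashed line at 0.05) with each of the 9 libraries left out in turn, 1 row a library. AGO1 and DROSHA stay left of the line, and so called, in 4 of 9 rows and XPO5 in 6 of 9. The rows without an siRNA 1 library leave out none of the libraries compared. Among the other rows, AGO1 and DROSHA stay called only without replicate 1 of siRNA 2. XPO5 stays called there and without control replicate 3 or siRNA 2 replicate 2.

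The promoters of the 3 genes that rose after siRNA 2 are shown so that their sequence can be compared. They run from 250 bases before to 50 bases after the annotated start in RefSeq (GRCh38.p14), at chr1:35882959-35883258 on the plus strand for AGO1, chr5:31532044-31532343 on the minus strand for DROSHA and chr6:43575989-43576288 on the minus strand for XPO5. Capitals mark the GC box (GGGCGG or its reverse complement CCGCCC) and the CCAAT box (CCAAT or ATTGG).
AGO1: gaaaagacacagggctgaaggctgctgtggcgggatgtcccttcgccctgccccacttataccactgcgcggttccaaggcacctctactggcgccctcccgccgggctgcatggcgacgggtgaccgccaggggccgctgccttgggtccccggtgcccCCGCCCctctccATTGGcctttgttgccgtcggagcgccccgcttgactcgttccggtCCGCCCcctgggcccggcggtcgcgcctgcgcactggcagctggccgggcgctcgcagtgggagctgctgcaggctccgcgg
DROSHA: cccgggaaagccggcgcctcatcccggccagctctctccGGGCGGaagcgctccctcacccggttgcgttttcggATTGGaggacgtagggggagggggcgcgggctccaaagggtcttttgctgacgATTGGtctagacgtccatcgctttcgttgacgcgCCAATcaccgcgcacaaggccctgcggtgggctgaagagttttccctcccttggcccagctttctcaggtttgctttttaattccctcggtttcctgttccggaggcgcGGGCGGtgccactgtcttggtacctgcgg
XPO5: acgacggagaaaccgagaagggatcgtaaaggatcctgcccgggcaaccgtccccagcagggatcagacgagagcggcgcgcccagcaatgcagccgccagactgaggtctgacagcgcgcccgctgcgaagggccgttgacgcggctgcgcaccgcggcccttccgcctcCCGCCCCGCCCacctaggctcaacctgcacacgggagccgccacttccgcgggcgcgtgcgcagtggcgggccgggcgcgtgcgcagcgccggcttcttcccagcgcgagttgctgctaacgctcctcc
The GC contents are 72.3% for AGO1, 63.0% for DROSHA and 71.7% for XPO5, with 30, 28 and 41 CpG dinucleotides, against medians of 58.3% and 14 over 27305 promoters. Such values were not particular to the genes that rose: the promoter of DGCR8 has 80.3% GC, 57 CpG and 3 GC boxes, that of AGO3 80.0% GC and 50 CpG, and that of TNRC6A 73.7% GC and 31 CpG. AGO1, DROSHA and XPO5 each hold 2 matches to the GC box, which overlap in XPO5, and 44.6% of all promoters hold at least 1. AGO1 holds 1 CCAAT box and DROSHA 3, where 35.7% of promoters hold it, and XPO5 none. No match to the ETS motif CCGGAAG, the E-box CACGTG or the TATA box TATAAA was found in the 3 windows on either strand, and 10.7%, 7.4% and 12.0% of all promoters hold these. A match is a string of letters here, and no binding was measured. Sequences were found for 9 of the 10 genes, all but AGO2.

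Of 122 other genes of the pathway, listed by role, 116 were tested. After siRNA 1, 4 rose and 5 fell, and after siRNA 2, 21 rose and 11 fell, with median log2 fold changes of -0.07 and 0.12. The shares called were 7.76% and 27.6%, where 7.08% and 13.8% of all tested genes were called, or 11.8% and 22.6% of those at least as high in CPM as AGO4. With each library left out in turn, 2 of the 9 siRNA 1 calls held throughout (HSP90AB1 and HSPA8). Of the 28 siRNA 2 calls named here 9 did (HNRNPA1, HSP90AA1, HSP90AB1, HSPA4, HSPA8, MIR23AHG, TNRC6C, ZC3H12A and ZSWIM8), and the others were lost without at least 1 library. The shares called after siRNA 2 were 18.8% of the microprocessor cofactors, 42.9% of the export partners and 22.2% of the Dicer partners. The cofactors and Dicer partners were not above the 22.6% of genes at least as high as AGO4, so their values describe single genes. Among 16 microprocessor cofactors none was called after siRNA 1 (6 had an unadjusted p under 0.05), and 3 rose after siRNA 2: the RNA-binding protein gene HNRNPA1 (0.42 ± 0.08, adjusted p = 0.0066), the cap-binding gene NCBP1 (0.51 ± 0.10, 0.011) and the helicase gene DDX5 (0.26 ± 0.06, 0.016). HNRNPA1 had 1173.7, 1403.1 and 1459.7 CPM after siRNA 2, against 1044.9, 979.3 and 989.2 CPM after control siRNA. Among 7 export partners none was called after siRNA 1 (3 unadjusted), and RAN, the GTPase that XPO5 needs, rose by 0.28 ± 0.05 after siRNA 2 (adjusted p = 0.0079), with its exchange factor RCC1 (0.25 ± 0.07, 0.035), whose exons overlap SNHG3 on the same strand, and the nucleoporin RANBP2 (0.44 ± 0.11, 0.029). The RAN call was lost with the GC trend removed (0.19, adjusted p = 0.15), and DDX5 was then 0.16 higher (adjusted p = 0.039). Among 9 Dicer and double-stranded RNA partners, FMR1, which encodes an RNA-binding protein found with argonautes, fell after siRNA 1 (-0.69 ± 0.16, 0.033), and the editing enzyme ADAR (0.25 ± 0.06, 0.022) and the nuclease SND1 (0.27 ± 0.08, 0.042) rose after siRNA 2. FMR1 differed by -0.44 with the GC trend removed (adjusted p = 0.00031). With 1 library left out, the siRNA 2 call of SND1 held in 1 of 9 fits (adjusted p up to 0.16) and that of RCC1 in 2 of 9 (up to 0.14). Both held without siRNA 1 replicate 1, a library outside this comparison, and RCC1 also without siRNA 2 replicate 1.

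Of 12 chaperones and co-chaperones of the kind that open argonautes for loading, 3 rose after siRNA 1, and 6 rose and 1 fell after siRNA 2. So 25.0% and 58.3% were called, against 7.08% and 13.8% of all tested genes, or 11.8% and 22.6% of those at least as high in CPM as AGO4. The list was chosen with earlier results of these data known. HSPA8, the constitutive HSP70, had 1625.5, 1484.8 and 1467.6 CPM after siRNA 1, 1766.4, 1712.8 and 1706.5 CPM after siRNA 2, and 1160.9, 1186.3 and 1189.7 CPM after control siRNA. Its log2 fold changes were 0.37 ± 0.05 after siRNA 1 (adjusted p = 0.0032) and 0.55 ± 0.05 after siRNA 2 (adjusted p = 0.00030). The HSP90 genes HSP90AB1 (0.36 ± 0.04, 0.0013) and, after siRNA 2, HSP90AA1 (0.74 ± 0.08, 0.00062) and HSP90AB1 (0.23 ± 0.04, 0.0062) rose as well. So did the co-chaperone FKBP4 after siRNA 1 (0.36 ± 0.07, 0.011) and siRNA 2 (0.31 ± 0.07, 0.015), and HSPA4 after siRNA 2 (0.56 ± 0.06, 0.00059). These proteins serve many clients besides the argonautes.

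Of 30 silencing effectors, 1 rose and 1 fell after siRNA 1, and 2 rose and 3 fell after siRNA 2. At 6.67% and 16.7% called, the effectors were near the 7.08% and 13.8% of all tested genes, so the values below describe single genes. The deadenylase gene CNOT6 had 41.5, 66.4 and 67.3 CPM after siRNA 1, against 101.1, 103.1 and 98.6 CPM after control siRNA (-0.79 ± 0.15, adjusted p = 0.014), and the poly(A)-binding protein gene PABPC1 rose (0.21 ± 0.04, 0.013). After siRNA 2, PAN2, the catalytic subunit of the other deadenylase, fell (-0.43 ± 0.08, 0.010), as did CNOT11 (-0.28 ± 0.07, 0.030), while EIF4E2, a cap-binding repressor (0.29 ± 0.06, 0.016), and CNOT10 (0.32 ± 0.08, 0.032) rose. Exons of PAN2 and CNPY2 overlap on the same strand, so reads of the 2 genes may be split. Of 14 genes of microRNA turnover and tailing, 2 fell after siRNA 1, and 2 rose and 3 fell after siRNA 2, which is 14.3% and 35.7%. The shares were 7.08% and 13.8% over all tested genes, and 11.8% and 22.6% of those at least as high in CPM as AGO4. ZSWIM8, the ubiquitin ligase receptor for target-directed microRNA decay, fell after siRNA 2 (-0.58 ± 0.09, 0.0039), as did the nuclease ZC3H12A (-0.73 ± 0.13, 0.0062) and the uridylyltransferase TUT1 (-0.91 ± 0.22, 0.024), while the exonuclease XRN2 rose (0.29 ± 0.06, 0.013). TENT2, a poly(A) polymerase that adds adenosines to some microRNAs, fell after siRNA 1 (-0.48 ± 0.08, 0.0088) and rose after siRNA 2 (0.34 ± 0.08, 0.025). LIN28A, which blocks let-7 processing, fell after siRNA 1 (-2.11 ± 0.54, 0.046), on 4 to 14 counts per library after siRNA 1 and 22 to 58 after control siRNA. That call held in 2 of 9 fits without a library, those without replicate 1 of siRNA 1 or of siRNA 2, the latter outside the comparison. With the GC trend removed, the siRNA 2 calls of XRN2 (0.19, adjusted p = 0.055) and TENT2 (0.21, 0.084) were lost. Others kept their call at a smaller size, ZSWIM8 at -0.33 and ZC3H12A at -0.46 after siRNA 2 and TENT2 at -0.29 after siRNA 1.

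Of 30 microRNA host transcripts, 26 were tested: 1 fell after siRNA 1, and 3 rose and 4 fell after siRNA 2. That is 3.85% and 26.9%, where 7.08% and 13.8% of all tested genes were called, or 11.8% and 22.6% of those at least as high in CPM as AGO4. MIR100HG, the host of miR-100, let-7a-2 and miR-125b-1, had 21.4, 31.5 and 36.5 CPM after siRNA 1, 72.1, 79.0 and 72.4 CPM after siRNA 2, and 48.1, 49.8 and 48.6 CPM after control siRNA. The control libraries lay between 2 groups that did not touch them, as its log2 fold changes were -0.71 ± 0.16 (adjusted p = 0.025) after siRNA 1 and 0.61 ± 0.16 (adjusted p = 0.029) after siRNA 2. Replicate 1 of siRNA 1 was the lowest, and without replicate 1 of both siRNAs the values were -0.52 (adjusted p = 0.00027) and 0.64 (1.9e-05). With 1 library left out, the siRNA 1 call held in 5 of 9 fits and the siRNA 2 call in 4 of 9. Each count includes the fits without a library of the other siRNA, which is outside the comparison. MIR23AHG, the host of miR-23a, miR-27a and miR-24-2, had 11.2, 9.08 and 7.73 CPM after siRNA 2, against 15.9, 16.4 and 16.2 CPM after control siRNA (-0.79 ± 0.14, adjusted p = 0.0060), and its annotated span also overlaps ZSWIM4 on the opposite strand. CTDSPL (0.36 ± 0.07, 0.011) and PANK1 (0.55 ± 0.12, 0.015), which hold microRNA hairpins in their introns, rose after siRNA 2, and CTDSP2 fell (-0.37 ± 0.07, 0.011).

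The guide-strand microRNAs of the 2 noncoding hosts are shown because they are the best-known products of hosts that were called. They are RefSeq sequences on the minus strand of chromosome 11 for MIR100HG and chromosome 19 for MIR23AHG (GRCh38.p14), with the seed, bases 2 to 8, in capitals. The first 3 come from MIR100HG and the last 3 from MIR23AHG, and no 2 of the 6 share a seed.
hsa-miR-100-5p: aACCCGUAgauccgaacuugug
hsa-let-7a-5p: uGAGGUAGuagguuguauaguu
hsa-miR-125b-5p: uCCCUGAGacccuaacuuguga
hsa-miR-23a-3p: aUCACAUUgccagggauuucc
hsa-miR-27a-3p: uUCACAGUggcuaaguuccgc
hsa-miR-24-3p: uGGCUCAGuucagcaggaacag
A host transcript's level is not the level of its microRNAs, which were not measured.

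For AGO2 and DICER1, the slicing and the dicing nuclease, the genes with the most similar profile were listed as a description over the 9 libraries, among 12154 genes. For AGO2 these were GPATCH2L (Pearson's r = 0.987 of log2 CPM), FEM1C (0.956) and CIBAR1 (0.955). For DICER1 they were ZMPSTE24 (0.994), ZBTB11 (0.993) and TMOD3 (0.992). The GC trend described above differed in size and sign between the libraries, and its part in these correlations was not tested. The highest of many correlations over 9 points is also high by selection.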

How the data were processed

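Gene counts of 9 RNA-seq libraries were used as the authors deposited them, as whole numbers per Ensembl gene. The submitters' processing notes name the build hg19. The aligner, counter, annotation, strand setting and treatment of reads that fit several genes are not stated in any source at hand. The 10 genes, the role lists and the naming rule (every one of the 10, all paralogs, and at most 5 called genes per list and comparison) were chosen with earlier results of these data known.

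From the counts, edgeR 4.0.16 (R 4.3.3) fitted a quasi-likelihood model with group means to all 9 libraries after TMM scaling. Its filterByExpr function (count at least 10, total at least 15) left 20868 genes with 99.96% of counts. Calls are Benjamini-Hochberg adjusted p-values under 0.05 over all genes tested. CPM are counts per 1000000 counts after TMM scaling, and exon and transcript lengths, GC content and overlaps came from GENCODE 29. The biological coefficient of variation was 20%. Alternatives were other scalings, DESeq2 1.42.0, limma-voom 3.58.1, no filter, a lowess GC correction (span 0.3), a replicate block, only the groups compared, and each library left out. Leaving out a library outside a comparison mainly changed the spread shared by all groups, and the estimate little. Promoter and microRNA sequences came from RefSeq.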

Additional observations from a re-analysis of the deposited data

Results flagged for a closer look

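The direct comparison of siRNA 2 with siRNA 1 called a difference between their effects for 3 of the 10 genes, for 26 of the 32 pathway genes named above for their call against control, and for the paralog TNRC6B, by edgeR's quasi-likelihood test with Benjamini-Hochberg adjustment. Over all tested genes 22.4% were called, and 35.6% of those at least as high in CPM as AGO4, and the 32 had been chosen for a call in the same libraries. Among the 10 the log2 differences, siRNA 2 minus siRNA 1, were 0.43 for AGO1, 0.47 for AGO4 and 0.41 for TNRC6A. Among the cofactors of processing and export they were 0.19 for DDX5, 0.35 for NCBP1, 0.19 for RAN, 0.51 for RANBP2, 0.22 for ADAR and 0.86 for FMR1. Among the chaperones they were 0.45 for HSP90AA1, -0.13 for HSP90AB1, 0.18 for HSPA8 and 0.41 for HSPA4. Among the silencing effectors they were 0.52 for TNRC6B, -0.61 for TNRC6C, 0.98 for CNOT6, -0.28 for CNOT11, -0.34 for PAN2 and 0.40 for EIF4E2. Among the turnover genes they were 2.51 for LIN28A, -0.35 for ZSWIM8, 0.28 for XRN2, -0.79 for ZC3H12A, 0.82 for TENT2 and -1.19 for TUT1. Among the host transcripts they were 1.32 for MIR100HG, -0.57 for MIR23AHG, 0.57 for CTDSPL, -0.27 for CTDSP2 and 0.73 for PANK1. With the GC trend removed, 7 of these differences were no longer called: RAN and DDX5 (0.02 each), NCBP1 (0.15), RANBP2 (0.20), HSPA8 (0.14), XRN2 (0.12) and ZSWIM8 (-0.09). Of the 27 pathway differences, 14 held with each library left out in turn and 13 were lost without at least 1. HSP90AB1 and HSPA8 held in 1 of 9 such fits, and RAN and ADAR in 2 of 9. Groups of 3 libraries were not tested for single outlying values.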

How the results depend on the processing

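Of 750 alternative values for the 10 genes, 642 kept direction and call, 27 lost the call, 47 gained one and 34 changed sign. Of 703 for the called pathway genes, 573 kept and 130 lost the call, and none changed sign. The cause was not tested. Without replicate 1 of both siRNAs, chosen after seeing the data, 4 of the 10 were called for siRNA 1 against control, 7 for siRNA 2 against control, 7 for siRNA 2 against siRNA 1 and 6 for both against control, with 58, 86, 82 and 65 of the 116 pathway genes and 5381, 8224, 7801 and 6895 of all genes. The reported counts were 0, 3, 3 and 1 of the 10, 9, 32, 45 and 15 pathway genes and 1478, 2872, 4681 and 1538 of all genes. DESeq2 called 1 of the 10 and 24 pathway genes for siRNA 1, 5 of the 10 for siRNA 2 against siRNA 1, and 2 of the 10 and 25 pathway genes for both, with 2943 of all genes for siRNA 1 and 2720 for both. Without the filter, 5 and 8 pathway genes were called for siRNA 1 and both, and 969 of all genes for siRNA 1. With only the groups compared, siRNA 2 against control gave 5 of the 10, 55 pathway genes and 4664 of all genes, and siRNA 2 against siRNA 1 gave 20 and 2325. With the GC trend removed, siRNA 1 gave 1, 33 and 4032, and both gave 2, 37 and 3664. In siRNA 2 against control, 44.7% of calls over all genes were higher, against 57.5% with the GC trend removed and 53.1% with upper quartile scaling. Leaving out 1 library gave 0 to 1, 0 to 6, 1 to 5 and 0 to 4 of the 10 in the 4 comparisons, 2 to 25, 12 to 59, 18 to 53 and 4 to 40 pathway genes, and 439 to 2538, 1080 to 5289, 2130 to 5843 and 314 to 3652 of all genes. The siRNA 1 call appeared without siRNA 1 replicate 1, and siRNA 2 against control gave 0 without control replicate 1 or 2 or siRNA 2 replicate 3, 1 without control replicate 3 or siRNA 2 replicate 2, and 6 without siRNA 1 replicate 1. Both siRNAs against control could not be fitted with only the groups compared, which are all groups.

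The sign changes were of values between -0.14 and 0.17, none of them called. For AGO2, siRNA 1 gave 0.01 with upper quartile scaling and 0.07 without replicate 1 of both siRNAs, siRNA 2 gave -0.01 with the GC trend removed, with or without the replicate block, and both gave -0.01 and -0.02 in those settings. For AGO3, siRNA 2 against siRNA 1 gave -0.14 with the GC trend removed, -0.13 with the block added and -0.03 without replicate 1 of both. For DGCR8, siRNA 2 gave 0.00 with upper quartile scaling and 0.06 with the GC trend removed, with or without the block. For DICER1, both gave 0.01 with upper quartile scaling, 0.00 with the GC trend removed, with or without the block, and 0.09 without replicate 1 of both. For TARBP2, siRNA 2 against siRNA 1 gave 0.17 with the GC trend removed, with or without the block. For PRKRA, siRNA 1 gave 0.14 with the GC trend removed, 0.13 with the block added and 0.07 without replicate 1 of both. Over fits without 1 library, siRNA 1 against control ran over -0.01 to 0.07 for AGO1, -0.05 to 0.07 for AGO2 and -0.18 to 0.07 for PRKRA. Likewise siRNA 2 against control ran over -0.02 to 0.12 for AGO2 and -0.07 to 0.02 for DGCR8. For siRNA 2 against siRNA 1 the ranges were -0.03 to 0.14 for AGO2, -0.10 to 0.30 for AGO3 and -0.17 to 0.01 for TARBP2. For both against control they were -0.02 to 0.05 for AGO2 and -0.06 to 0.07 for DICER1.

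Same-numbered libraries of different groups had correlations of deviations of -0.045 to 0.096. Between the 2 siRNAs, same-numbered libraries gave 0.096, 0.049 and 0.021, and differently numbered ones gave -0.071 to 0.028. Such small values do not settle whether the replicate numbers pair the libraries. With the replicate block, 0, 3, 4 and 1 of the 10 genes, 12, 34, 49 and 13 pathway genes and 1582, 3311, 5150 and 1559 of all genes were called in the 4 comparisons. With the GC trend removed as well, the counts were 1, 3, 2 and 2 of the 10, 31, 43, 38 and 34 pathway genes, and 3674, 4027, 5109 and 3312 of all genes.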
